A study of Homo sapiens with 14 samples.

Results

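The mitochondrial carrier family was followed here across OVCAR-3 cells and their drug-resistant sublines. Its members were chosen by name, as genes whose symbol is SLC25A followed by a number or is UCP1, UCP2 or UCP3, among array rows assigned to 1 gene, and 49 of the 18398 measured genes met this. The family was singled out because UCP2 and SLC25A11 fell in selected cells, so selected against stable cells, and these 2 genes in every comparison, are given below as a description and no test is read from them.

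OVCAR-3 cells are a long-used ovarian cancer line, and the sublines R1, R3, R5, R6 and R7 arose from it independently and are resistant to PHA-533533, an inhibitor of the cell cycle kinase CDK2. The selected group holds 5 arrays, 1 per subline, of cells at passage 5 growing in 4 µM PHA-533533. The stable group holds 5 arrays of the same sublines at passage 10 or later in 0 µM inhibitor, and the parental group holds 4 arrays of OVCAR-3 cells that grew without it. All cells grew in the same serum-supplemented medium with antibiotics. Passage and inhibitor changed together between selected and stable cells, so their effects cannot be told apart, and the labels leave unsaid whether a subline is a clone. Nothing in them states that the 4 parental arrays came from separate cultures, and p-values then measure only the spread between arrays, which may be technical. Values are deposited Affymetrix whole-transcript signals on a log2 scale, with array medians between 7.54 and 7.68 over 14 arrays. Precision is set by how few arrays each group has, and signals of different genes were not set against each other because their probes differ.

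Mitochondrial carriers are small proteins of the inner mitochondrial membrane that exchange metabolites, nucleotides, cofactors and ions between the cytosol and the matrix. Most work as exchangers that bring a molecule in as they let another out. They link glycolysis, amino acid use and lipid synthesis to respiration, and in carcinoma cells they set how citrate, malate, aspartate and ADP are shared between compartments. UCP1, the founding uncoupling protein, lets protons back into the matrix in brown fat, whereas UCP2 is known to export dicarboxylic acids such as malate. SLC25A11 exchanges 2-oxoglutarate for malate and is part of the malate-aspartate shuttle, which carries reducing equivalents into mitochondria.

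The RefSeq promoters of UCP2, SLC25A11 and SLC25A4, from 250 bases before to 50 bases after an annotated start, are shown because the family was chosen for the first pair and SLC25A4 had the largest rise against parental cells. Positions are on GRCh38.p14, each window spans an annotated start of its gene, and the sequence is written 5′ to 3′ on the gene's strand. Windows exist for 42 of the 49 carriers, and UCP2 has 2 annotated starts. The windows are UCP2 a at chr11:73983153-73983452 and UCP2 b at chr11:73982794-73983093, both on the minus strand, SLC25A11 at chr17:4939997-4940296 on the minus strand, and SLC25A4 at chr4:185143016-185143315 on the plus strand. Capitals mark matches to motifs searched on both strands, namely the TATA box (TATAAA), the CCAAT box (CCAAT), the GC box (GGGCGG), the E box (CACGTG), the ETS core (CGGAAG), the nuclear receptor motif (AGGTCA) and the NRF1 and sterol response motifs.
UCP2 a: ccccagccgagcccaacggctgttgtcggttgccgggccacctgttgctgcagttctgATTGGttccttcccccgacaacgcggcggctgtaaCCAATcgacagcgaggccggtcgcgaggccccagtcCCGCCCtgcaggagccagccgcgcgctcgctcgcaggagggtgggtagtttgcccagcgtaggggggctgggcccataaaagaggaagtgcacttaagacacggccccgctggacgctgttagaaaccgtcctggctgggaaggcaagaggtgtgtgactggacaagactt
UCP2 b: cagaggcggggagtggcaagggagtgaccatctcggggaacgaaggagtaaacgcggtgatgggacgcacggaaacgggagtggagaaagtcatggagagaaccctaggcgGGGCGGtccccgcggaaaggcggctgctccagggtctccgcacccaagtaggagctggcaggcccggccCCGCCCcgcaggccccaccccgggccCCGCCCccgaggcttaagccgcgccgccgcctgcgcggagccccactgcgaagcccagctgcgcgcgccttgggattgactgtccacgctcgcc
SLC25A11: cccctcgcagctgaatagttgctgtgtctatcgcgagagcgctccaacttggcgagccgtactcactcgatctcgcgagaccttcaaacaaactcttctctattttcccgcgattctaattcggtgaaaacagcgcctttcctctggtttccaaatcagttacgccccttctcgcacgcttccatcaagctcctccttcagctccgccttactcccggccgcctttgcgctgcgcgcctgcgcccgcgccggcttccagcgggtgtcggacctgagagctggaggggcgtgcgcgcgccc
SLC25A4: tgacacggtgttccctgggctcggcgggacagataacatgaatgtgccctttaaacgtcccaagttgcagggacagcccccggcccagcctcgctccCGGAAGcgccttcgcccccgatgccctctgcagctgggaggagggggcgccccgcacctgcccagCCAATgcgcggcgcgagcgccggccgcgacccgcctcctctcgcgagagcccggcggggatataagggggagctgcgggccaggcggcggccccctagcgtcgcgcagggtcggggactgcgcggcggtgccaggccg
UCP2 a held 2 CCAAT boxes and 1 GC box (GGGCGG), UCP2 b held 3 GC boxes, and SLC25A4 held 1 CCAAT box and 1 CGGAAG. The SLC25A11 window held none of these motifs, and no matches overlapped. Among all 35116 RefSeq promoter windows of this length, 34.6% held CCAAT, 45.0% GGGCGG and 19.5% CGGAAG, against 43.4%, 64.2% and 34.0% of 53 carrier windows. The remaining motifs were in 17.0% (CACGTG), 7.55% (TATAAA), 9.43% (AGGTCA), 0% (NRF1) and 1.89% (sterol response) of carrier windows, against 7.26%, 11.5%, 13.8%, 1.24% and 1.13% of all windows. Carrier windows had a median of 65.7% G and C and all windows 58.7%. A match is a run of letters and was not tested as a binding site.

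Selected against parental cells asks which carriers differ in resistant cells growing in the inhibitor. SLC25A4, SLC25A40, SLC25A44 and SLC25A51 rose, UCP2 and SLC25A11 were lower, and 43 of 49 carriers did not pass. Of all genes 6.92% were called, 5.03% higher and 1.89% lower. The 2 lower carriers are those the family was chosen for, so nothing is read from them or from the count of 6 that holds them. The median difference was 0.05 on the log2 scale over the 49 carriers and -0.01 over all genes, and 29 carriers lay above 0 and 20 below. Tests were limma with Benjamini-Hochberg adjustment over 18398 genes. Bulk signal cannot tell fewer cells with a transcript from less of it per cell.

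UCP2 aside, from which no test is read, no uncoupling protein passed. UCP2 signal was 9.82, 9.63, 9.50, 9.46 and 9.80 in selected R1, R3, R5, R6 and R7, 11.07, 11.49, 11.25, 10.08 and 10.37 in the stable arrays of the same sublines in the same order, and 10.65, 10.54, 10.39 and 10.44 in parental replicates 1 to 4. Every selected array lay below every parental and every stable one. The selected mean differed from the parental mean by -0.87 on the log2 scale (SE 0.10), the 5 selected arrays averaging 9.64 ± 0.17 and the 4 parental arrays 10.51 ± 0.11 (SD). In stable cells UCP2 averaged 10.85 ± 0.60 (SD, n = 5), a difference of 0.34 from parental cells (SE 0.25). The stable arrays were spread widely, with R1, R3 and R5 above the highest parental array and R6 and R7 below the lowest. UCP3, the muscle uncoupling protein, differed by -0.07 (SE 0.07) and UCP1 by -0.04 (SE 0.09) in selected cells.

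The other members of this group are relatives known from brain and kidney. SLC25A27, a brain carrier also called UCP4, was 7.36, 8.07, 7.57, 7.65 and 7.76 in selected, 7.46, 7.19, 7.65, 7.51 and 7.42 in stable and 7.44, 7.49, 7.41 and 7.47 in parental arrays. Selected R3 stood highest, groups overlapped, and the difference of 0.23 from parental cells (SE 0.12) did not pass (limma adjusted p = 0.322). SLC25A14, also called UCP5, and SLC25A30, a kidney carrier, differed by 0.06 (SE 0.08) and 0.13 (SE 0.11).

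SLC25A11 aside, from which no test is read, no carboxylate carrier passed. SLC25A11 signal was 9.66, 9.02, 9.54, 9.38 and 9.71 in selected arrays, 10.74, 10.74, 10.77, 10.20 and 10.39 in stable arrays and 10.46, 10.39, 10.28 and 10.30 in parental arrays. All 5 selected arrays lay below all others, and selected R3 was the lowest. The selected mean differed from the parental mean by -0.90 (SE 0.13), the 5 selected arrays averaging 9.46 ± 0.28 and the 4 parental arrays 10.36 ± 0.08 (SD). Its stable mean was 10.57 ± 0.26 (SD, n = 5), which differed from the parental mean by 0.21 (SE 0.12). As with UCP2, the stable arrays of R1, R3 and R5 lay above every parental array, while R6 lay below and R7 within the parental range. The selected and the stable arrays both entered the comparison that singled out UCP2 and SLC25A11, so no p is given for them against parental cells either.

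SLC25A1, the citrate exporter that feeds lipid synthesis, was 10.59, 10.30, 10.25, 10.75 and 11.01 in selected, 10.73, 10.35, 10.27, 10.13 and 9.84 in stable and 10.27, 10.45, 10.05 and 10.41 in parental arrays. Selected R6 and R7 stood highest, and the difference of 0.29 from parental cells (SE 0.15) did not pass (limma adjusted p = 0.330). SLC25A10, the dicarboxylate carrier, differed by 0.03 (SE 0.09), the oxodicarboxylate carrier SLC25A21 by -0.03 (SE 0.08), and the less characterised SLC25A34 and SLC25A35 by 0.05 and 0.14.

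**Figure D1:**
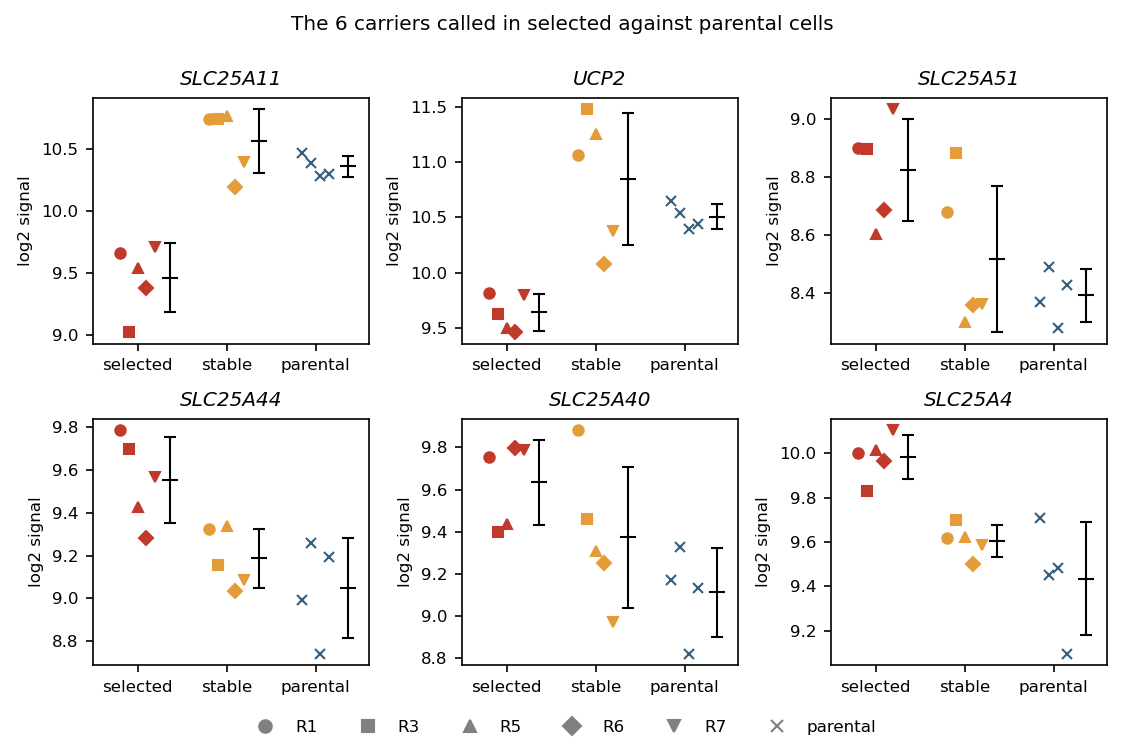
Log2 signal (vertical axes, scaled per gene) of the 6 carriers called in selected against parental cells, by group, with a marker per subline and the group mean ± SD beside the points. UCP2 and SLC25A11 lie lower in all 5 selected arrays than in any other array, and the other 4 genes lie higher in all 5 selected arrays than in any parental array. The family was chosen for UCP2 and SLC25A11, so nothing is read from their calls.

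Among adenine nucleotide carriers SLC25A4 rose. It encodes the ADP/ATP carrier of heart and muscle, which exports ATP from the matrix in exchange for ADP. SLC25A4 signal was 10.00, 9.83, 10.02, 9.97 and 10.11 in selected, 9.62, 9.70, 9.62, 9.50 and 9.59 in stable and 9.71, 9.45, 9.48 and 9.10 in parental arrays. All selected arrays lay above all other arrays, and parental replicate 4 was the lowest. The rise was 0.55 (SE 0.11, adjusted p = 0.0142 by limma), the 5 selected arrays averaging 9.98 ± 0.10 and the 4 parental arrays 9.44 ± 0.25 (SD). Stable cells averaged 9.60 ± 0.07 (SD, n = 5), 0.17 above parental cells (SE 0.11, limma adjusted p = 0.969).

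SLC25A5, the ADP/ATP carrier of dividing cells, was not called. Its signal was 12.73, 12.71, 12.81, 12.73 and 12.95 in selected, 12.86, 12.81, 12.86, 12.68 and 12.69 in stable and 12.96, 12.87, 12.81 and 12.76 in parental arrays, with the groups overlapping and a difference of -0.06 in selected cells (SE 0.08). The ADP/ATP carrier genes are near relatives, and whether their probes share signal was not tested. SLC25A24, a calcium-regulated carrier of ATP-magnesium and phosphate, was 9.41, 9.06, 9.22, 9.16 and 9.42 in selected, 9.36, 9.44, 8.82, 8.97 and 8.86 in stable and 8.99, 9.08, 8.76 and 8.90 in parental arrays. Its groups overlapped by a narrow margin, and its difference of 0.32 from parental cells (SE 0.10) did not pass (limma adjusted p = 0.0715). Its relatives SLC25A23, SLC25A25 and SLC25A41 differed by -0.05, 0.15 and -0.01, the testis ADP/ATP carrier SLC25A31 by 0.06 and the peroxisomal carrier SLC25A17 by -0.16.

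SLC25A51, which imports NAD into the matrix, was the only cofactor and nucleotide carrier called. SLC25A51 signal was 8.90, 8.90, 8.60, 8.69 and 9.04 in selected, 8.68, 8.88, 8.30, 8.36 and 8.36 in stable and 8.37, 8.49, 8.28 and 8.43 in parental arrays. Every selected array lay above every parental one, and the stable arrays of R1 and R3 did so too. The rise was 0.43 (SE 0.10, adjusted p = 0.0212 by limma), the 5 selected arrays averaging 8.82 ± 0.18 and the 4 parental arrays 8.39 ± 0.09 (SD). Stable cells averaged 8.52 ± 0.25 (SD, n = 5) and did not pass at 0.13 (SE 0.12, limma adjusted p = 0.999). A dimmer array row of this gene averaged 6.14, 6.08 and 5.99 in selected, stable and parental cells, and with the mean of both rows the call was lost at 0.29 (limma adjusted p = 0.0613).

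The pyrimidine nucleotide carrier SLC25A36 was 9.68, 9.71, 9.68, 9.97 and 9.90 in selected, 9.81, 9.57, 9.63, 9.50 and 9.36 in stable and 9.55, 9.71, 9.38 and 9.44 in parental arrays. Its groups overlapped, and the difference of 0.27 in selected cells (SE 0.09) did not pass (limma adjusted p = 0.119). Its relative SLC25A33 differed by 0.25 (SE 0.12), and a second array row of SLC25A33 averaged 9.75 in selected and 9.68 in parental cells. SLC25A32, a carrier of folate and of the flavin cofactor FAD, was 10.80, 10.32, 10.73, 9.88 and 10.42 in selected, 10.50, 11.02, 10.42, 10.20 and 10.34 in stable and 11.07, 10.74, 10.55 and 10.51 in parental arrays. The groups overlapped over most of their range, with selected R6 lowest, and the difference of -0.29 (SE 0.18) did not pass (limma adjusted p = 0.449). The other 5 members, among them the coenzyme A carrier SLC25A42 at -0.01 and the S-adenosylmethionine carrier SLC25A26 at -0.08, differed from parental cells by -0.15 to 0.05.

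Among the 14 carriers of amino acids and related compounds 2 rose and 0 fell, beside 5.03% and 1.89% of all genes. SLC25A40, a relative of the glutathione carrier SLC25A39, was 9.76, 9.40, 9.43, 9.80 and 9.79 in selected, 9.88, 9.46, 9.31, 9.25 and 8.97 in stable and 9.17, 9.33, 8.82 and 9.14 in parental arrays. All selected arrays lay above all parental arrays, and stable R1 was the highest of all. The rise was 0.52 (SE 0.12, adjusted p = 0.0261 by limma), the 5 selected arrays averaging 9.63 ± 0.20 and the 4 parental arrays 9.11 ± 0.21 (SD). SLC25A44, the carrier of branched-chain amino acids, was 9.79, 9.70, 9.43, 9.28 and 9.57 in selected, 9.32, 9.16, 9.34, 9.03 and 9.09 in stable and 8.99, 9.26, 8.74 and 9.19 in parental arrays. Selected R6 exceeded the highest parental array by a narrow margin, and the rise was 0.51 (SE 0.13, adjusted p = 0.0355 by limma), the 5 selected arrays averaging 9.55 ± 0.20 and the 4 parental arrays 9.05 ± 0.23 (SD). In stable cells the differences were 0.26 (SE 0.17) for SLC25A40 and 0.14 (SE 0.12) for SLC25A44, and neither passed (limma adjusted p = 0.961 and 0.999).

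SLC25A39, which brings glutathione into mitochondria, was 11.83, 11.70, 11.69, 11.72 and 11.77 in selected, 11.84, 11.81, 11.76, 11.64 and 11.67 in stable and 11.73, 11.70, 11.66 and 11.62 in parental arrays. These lay close together, with a difference of 0.07 in selected cells (SE 0.06). SLC25A29, a carrier of basic amino acids, had all 5 selected arrays above all parental arrays and yet did not pass at 0.25 (SE 0.07, limma adjusted p = 0.0629). The aspartate-glutamate carriers of the malate-aspartate shuttle, SLC25A12 and SLC25A13, differed by 0.28 (SE 0.13) and 0.02 (SE 0.09). The carnitine-acylcarnitine carrier SLC25A20 differed by 0.22 (SE 0.17), the glycine carrier SLC25A38 by 0.15 (SE 0.10), the glutamate carriers SLC25A22 and SLC25A18 by -0.04 and -0.05, and the ornithine carriers SLC25A15 and SLC25A2 by 0.05 and -0.02. SLC25A45 and SLC25A48 differed by 0.04 and -0.16.

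None of the 6 carriers of inorganic ions or of less certain role passed in limma's test, where SLC25A28 alone had an unadjusted p under 0.05. SLC25A3, which imports the phosphate used to make ATP, was 12.28, 12.36, 12.25, 12.12 and 12.22 in selected, 12.24, 12.13, 12.11, 11.84 and 11.90 in stable and 12.19, 12.09, 12.05 and 12.04 in parental arrays. The groups overlapped at a difference of 0.15 (SE 0.07, limma adjusted p = 0.257). The iron importer SLC25A28 was 9.06, 9.14, 8.82, 8.78 and 8.76 in selected, 8.73, 8.95, 8.73, 8.50 and 8.71 in stable and 8.73, 8.76, 8.47 and 8.73 in parental arrays, a difference of 0.24 (SE 0.10) that did not pass (limma adjusted p = 0.209). Its relative SLC25A37 differed by 0.08 (SE 0.12), and a second, dimmer row of SLC25A37 averaged 9.29 in selected and 8.91 in parental cells, which was not tested alone. The outer membrane protein SLC25A46 differed by 0.15, and SLC25A43 and SLC25A53 by -0.17 and -0.08.

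Groups did not overlap for 7 of 49 carriers. All selected arrays were above all parental arrays in 5, the 4 carriers that rose and SLC25A29, beside 6.81% of all genes. They were below in 2, beside 2.96% of all genes, but these are UCP2 and SLC25A11, from which nothing is read. Calls of SLC25A40, SLC25A44 and SLC25A51 were lost without parental replicate 1, 3 or 4 or without selected R7. There 3 carriers passed instead of 6, and calls over all genes fell from 1273 to 735, 862, 517 and 621 in that order. The differences of SLC25A40, SLC25A44 and SLC25A51 stayed at 0.38 to 0.56. SLC25A40 also lost its call in 1 fit of all 14 arrays, at 0.52 (limma adjusted p = 0.0684). Without selected R3, SLC25A44 and SLC25A51 also lost theirs, and without selected R1 SLC25A44 did. Calls over all genes were 818 and 1074 there, and 993 in the 1 fit of all 14 arrays. SLC25A4 passed in all 17 alternative settings, at 0.44 to 0.64. The differences of UCP2 and SLC25A11 ranged there from -0.95 to -0.82 and from -0.97 to -0.79.

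**Figure D2:**
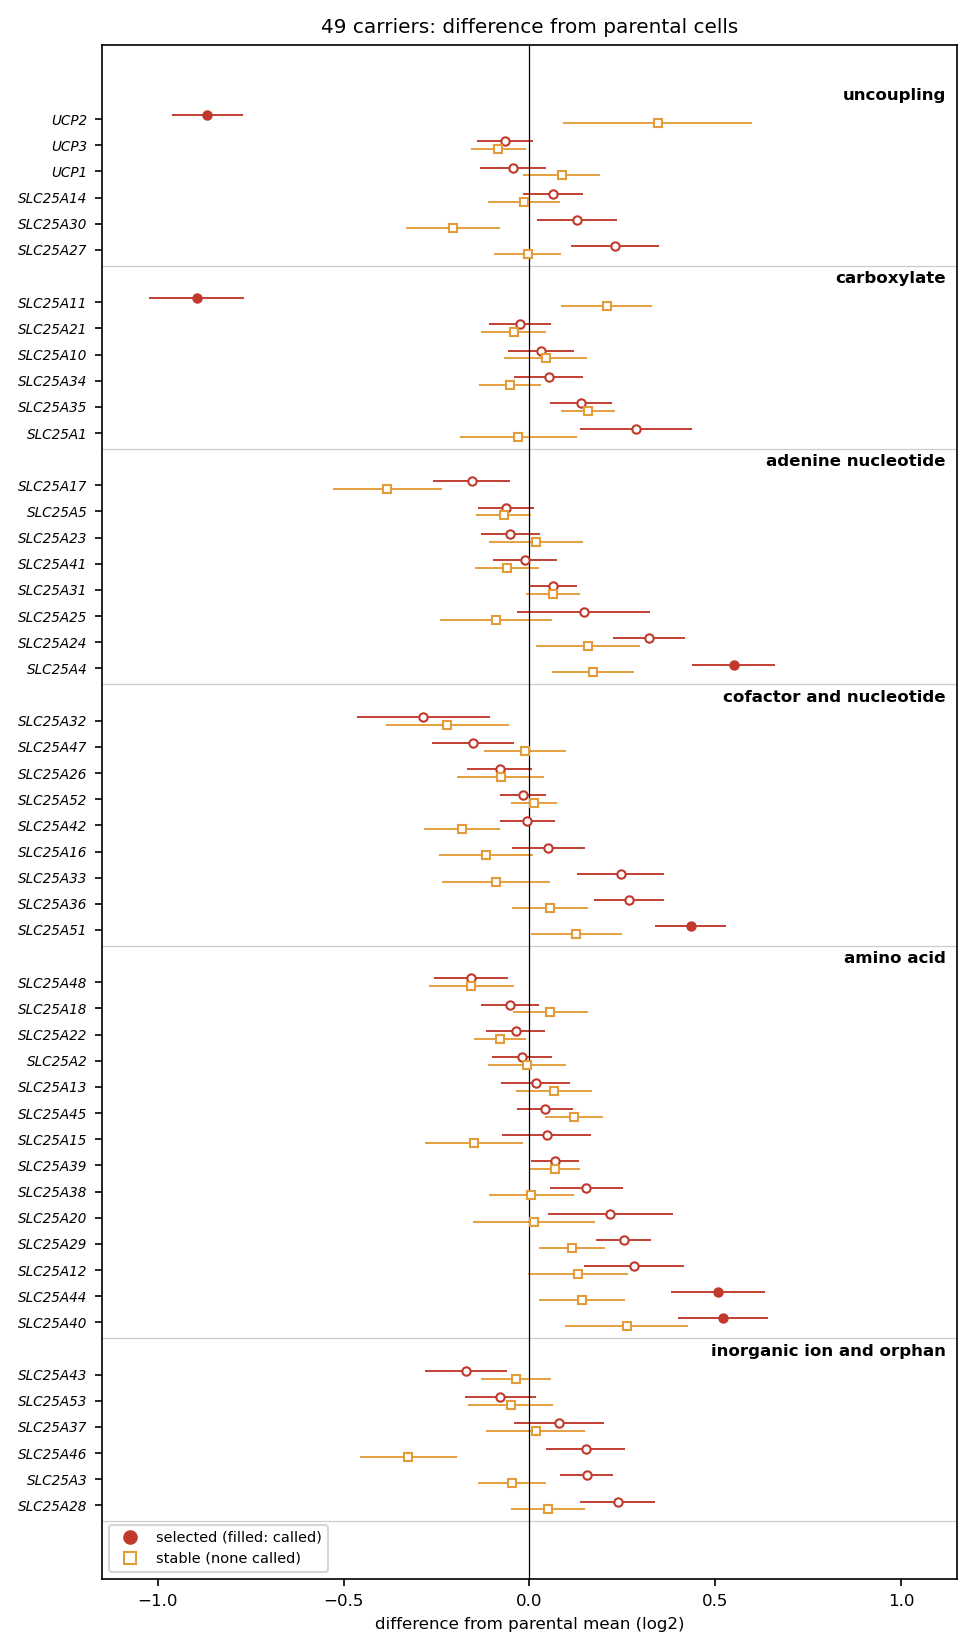
Difference of the selected (circles) and stable (squares) mean from the parental mean, in log2 units with SE bars, for 49 carriers grouped by role. Filled circles are the 6 carriers called in selected cells, of which UCP2 at -0.87 and SLC25A11 at -0.90 are the only selected differences below -0.30. The family was chosen for UCP2 and SLC25A11, so nothing is read from their calls.

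Stable against parental cells shows the carriers once the inhibitor had been withdrawn. None of the 49 carriers passed in limma, beside 0.00544% of all genes in either direction (0% higher, 0.00544% lower). Limma gave an unadjusted p under 0.05 to 1120 of 18398 genes and, among these, to 2 carriers. These were the peroxisomal SLC25A17 at -0.38 (SE 0.15, limma adjusted p = 0.693) and SLC25A46 at -0.33 (SE 0.13, limma adjusted p = 0.741). The groups overlapped in all 49, beside 0.826% of all genes with every stable array above and 1.42% with every stable array below the parental ones, the median difference was -0.00425 over the carriers and -0.00379 over all genes, and 45 differences were smaller than 0.25. Both resistant groups were compared with the same parental arrays, so the 2 sets of differences are not independent. With array weights SLC25A46 passed, the only carrier called against parental cells in stable arrays under any of 17 alternatives.

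Selected against stable cells compares each subline with itself in the 2 states. UCP2 differed by -1.25, -1.86, -1.76, -0.62 and -0.58 in R1, R3, R5, R6 and R7, a mean of -1.21 ± 0.61 (SD, n = 5). For SLC25A11 the differences in the same order were -1.07, -1.72, -1.23, -0.82 and -0.68, a mean of -1.10 ± 0.40 (SD, n = 5). Both genes were lower in the selected array of every subline and ranked the sublines in the same order, with R3 moving most and R7 least. They were the only carriers lower in all 5 pairs, beside 7.35% of all genes. Every selected array was also below every stable one in these 2, beside 1.33% of all genes. The family was chosen for the fall of UCP2 and SLC25A11, so nothing is read from these shares.

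SLC25A4 was higher in the selected array of every subline, by 0.13 in R3 to 0.52 in R7, with a mean of 0.38 ± 0.15 (SD, n = 5), the only carrier with all selected arrays above all stable ones, beside 2.83% of all genes. Carriers higher in all 5 pairs numbered 11, beside 11.8% of all genes. They included SLC25A46 at 0.48 ± 0.17, SLC25A44 at 0.37 ± 0.19, SLC25A30 at 0.33 ± 0.14, SLC25A51 at 0.31 ± 0.24 and SLC25A3 at 0.20 ± 0.11 (SD, n = 5 each). The comparison called 3 carriers (SLC25A4 higher, UCP2 and SLC25A11 lower) of 49, beside 2.16% of all genes, 1.54% higher and 0.614% lower. With subline as a replicate block it called 6, adding SLC25A30, SLC25A44 and SLC25A46, beside 4.92% of all genes (3.61% higher, 1.31% lower), and nothing is read from these counts because this comparison chose the family. Leaving out selected R7 or stable R5 left SLC25A11 alone, with differences still at -1.25 and -1.11 for UCP2 and 0.35 and 0.38 for SLC25A4. Leaving out stable R1 gave 5. Calls over all genes were 97, 104 and 962 without selected R7, stable R5 and stable R1, against 397 with all arrays.

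The sublines did not move alike in other carriers. SLC25A1 differed by 0.62 in R6 and 1.18 in R7 but by -0.14, -0.05 and -0.02 in R1, R3 and R5. SLC25A33 differed by 0.78 and 0.75 in R6 and R7 and by -0.03, -0.04 and 0.21 in R1, R3 and R5. SLC25A40 parted the same way, with 0.54 and 0.82 against -0.13, -0.06 and 0.13. These 3 were picked after their values were seen, and with 1 array per subline and state whether the change differs between sublines was not tested. The second array row of SLC25A33 averaged 9.75 in selected and 9.61 in stable cells, beside 9.98 and 9.64 in the row used. Whether both rows report the same locus was not tested. Background signal, the mean of 340 olfactory receptor genes, was lower in the selected array of every subline, with differences of -0.12, -0.13, -0.11, -0.03 and -0.38 in R1, R3, R5, R6 and R7. With this mean as a covariate beside the block, UCP2 differed by -1.47, SLC25A11 by -1.28, SLC25A4 by 0.32 and SLC25A40 by -0.00345. With the block alone these differences were -1.21, -1.10, 0.38 and 0.26. No carrier was called with the covariate, but 0 of all 18398 genes were, so the lack of calls is not particular to carriers.

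**Figure D3:**
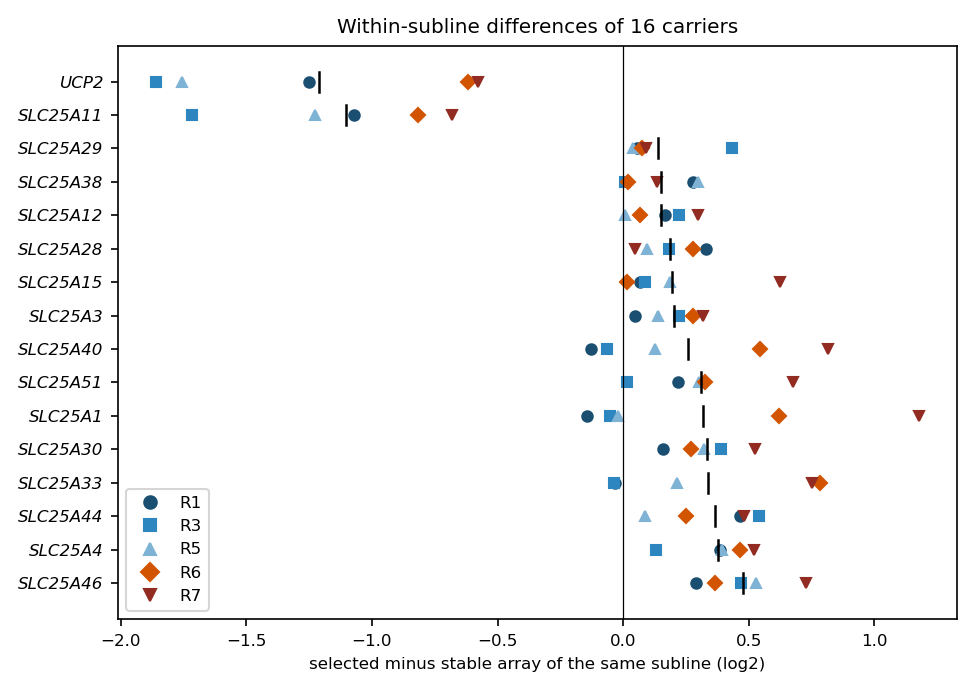
Selected minus stable signal of the same subline (horizontal axis, log2) for 16 carriers, those with all 5 pairs on 1 side of 0 and SLC25A1, SLC25A33 and SLC25A40, with a marker per subline and a bar at the mean. UCP2 and SLC25A11 lie below 0 in every subline, while SLC25A1, SLC25A33 and SLC25A40 lie between -0.14 and -0.03 in R1 and R3 and between 0.54 and 1.18 in R6 and R7.

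Over both states, differences between sublines were tested with limma's F test over the 10 arrays of resistant cells, with state (selected or stable) in the model. None of 49 carriers passed, beside 0.12% of all genes. An unadjusted p under 0.05 was given to 7, but no count over all genes was made, so nothing is read from this number. The smallest adjusted p was 0.186 by limma, that of SLC25A12, whose subline means were 9.86, 9.89, 9.93, 9.43 and 9.76 in R1, R3, R5, R6 and R7. SLC25A17 followed with 9.41, 9.31, 9.25, 8.80 and 9.09 in the same order, lowest again in R6 (limma adjusted p = 0.209). SLC25A46 was highest in R1 at 10.72 and lay between 10.19 and 10.38 in the others (limma adjusted p = 0.238). Subline means differed by less than 0.5 in 42 carriers. With array weights 4 carriers passed, SLC25A12, SLC25A15, SLC25A30 and SLC25A46, beside 1389 of all 18398 genes.

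Mitochondrial genes outside the family give its setting. Of 23 genes of other mitochondrial transport, 3 rose and 0 fell in selected against parental cells, beside 5.03% and 1.89% of all genes, with a median difference of 0.13 beside -0.01 over all genes. MPC1 was 9.62, 9.29, 9.44, 9.47 and 9.73 in selected, 8.99, 8.81, 8.50, 8.80 and 9.01 in stable and 8.82, 8.88, 8.82 and 8.67 in parental arrays. It encodes a subunit of the pyruvate carrier, which brings pyruvate into the matrix, and every selected array lay above all others, a rise of 0.72 (SE 0.09, adjusted p = 0.00194 by limma). MPC2, the partner subunit, was 9.71, 9.28, 9.48, 9.77 and 9.75 in selected, 9.59, 8.96, 8.90, 8.90 and 8.83 in stable arrays, and averaged 8.92 ± 0.11 (SD, n = 4) in parental arrays. It rose by 0.68 (SE 0.11, adjusted p = 0.00486 by limma), and stable R1 lay within the selected range. MCUB, a subunit that dampens the calcium uniporter, rose by 0.88 (SE 0.15, adjusted p = 0.00738 by limma). CPT1C, a brain carnitine palmitoyltransferase, differed by -0.36 (SE 0.12) and did not pass (limma adjusted p = 0.0946). In stable cells MPC1, MPC2 and MCUB differed from parental cells by 0.03, 0.12 and 0.30, and none passed (limma adjusted p = 0.999, 0.999 and 0.763).

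Carriers reach the inner membrane through an import route of receptors and chaperones, and of its 13 measured genes 1 fell and 0 rose, 7.69% beside the 6.92% of all genes called. TOMM22, an import receptor of the outer membrane, was 11.32, 10.94, 11.32, 11.08 and 11.19 in selected, 11.66, 11.88, 11.61, 11.46 and 11.56 in stable and 12.05, 11.83, 11.99 and 11.73 in parental arrays. Selected arrays lay below all others, a fall of 0.73 against parental cells (SE 0.10, adjusted p = 0.00238 by limma). TIMM13, TOMM70 and TIMM9, further import genes, differed by -0.25, 0.21 and 0.38 and did not pass (limma adjusted p = 0.135, 0.169 and 0.173). Of 18 enzymes that make or use the carried metabolites 1 rose and 1 fell, beside 5.03% and 1.89% of all genes. GOT1, the cytosolic aminotransferase of the malate-aspartate shuttle, rose by 0.55 (SE 0.10, adjusted p = 0.00817 by limma). The mitochondrial gluconeogenic enzyme PCK2 fell by 0.38 (SE 0.09, adjusted p = 0.0268 by limma). Citrate synthase (CS) differed by 0.27 (SE 0.08), with all selected arrays above all parental ones, and fatty acid synthase (FASN) by -0.50 (SE 0.16), and neither passed (limma adjusted p = 0.0577 and 0.0956). GOT1 means were 11.78 ± 0.09 (SD, n = 5) in selected, 11.30 ± 0.28 (SD, n = 5) in stable and 11.23 ± 0.21 (SD, n = 4) in parental cells.

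Of 19 regulators of mitochondrial and lipid genes 1 rose and 2 fell, beside 5.03% and 1.89% of all genes. PPARG, a nuclear receptor of lipid metabolism, was 8.24, 7.99, 8.09, 7.53 and 8.18 in selected, 7.49, 7.09, 7.15, 7.20 and 7.35 in stable and 7.73, 7.27, 7.46 and 7.17 in parental arrays. It rose by 0.60 (SE 0.15, adjusted p = 0.0360 by limma), although selected R6 lay within the parental range. SREBF1 and SREBF2, factors that drive lipid and sterol synthesis, fell by 0.60 (SE 0.15) and 0.57 (SE 0.13, limma adjusted p = 0.0395 and 0.0236). MYC, a growth-promoting factor, differed by -0.37 (SE 0.12) and did not pass (limma adjusted p = 0.0935). No gene of these 4 lists passed in stable against parental cells. There limma gave an unadjusted p under 0.05 to 3 import, 3 transport, 1 enzyme and 3 regulator genes, beside 1120 of 18398 genes.

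**Figure D4:**
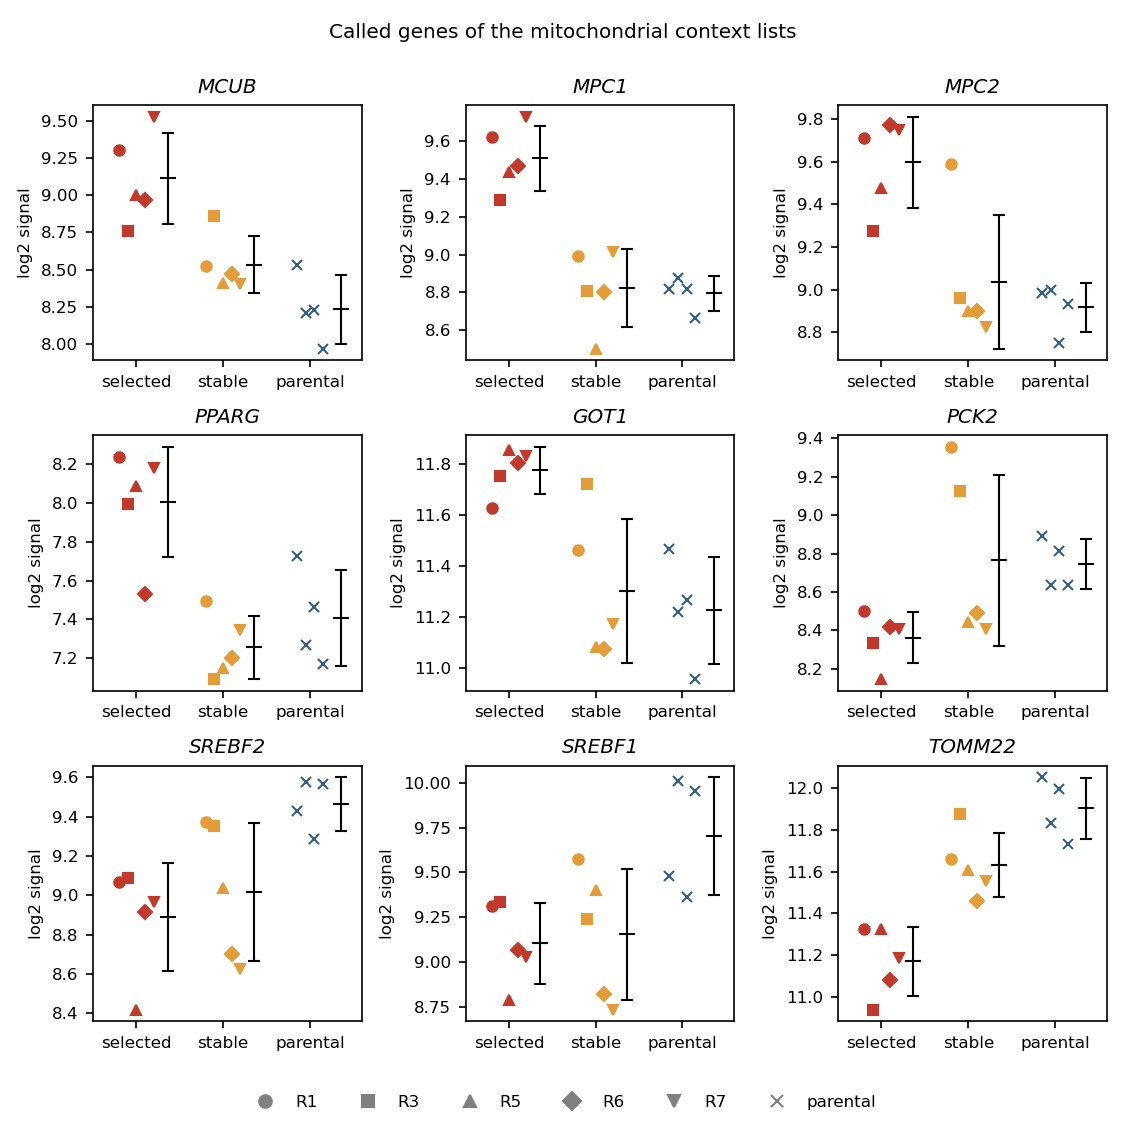
Log2 signal (vertical axes, scaled per gene) of the 9 called genes on the lists of import, other transport, shuttle enzymes and regulators, by group, with a marker per subline and the mean ± SD. MPC1 and GOT1 lie higher, and TOMM22 lower, in every selected array than in every parental array, and MPC1 stands at 9.29 to 9.73 in selected against 8.50 to 9.01 in stable and 8.67 to 8.88 in parental arrays.

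The label of the cells was checked on 12 ovarian and epithelial marker genes, all of them measured. PAX8, a transcription factor of the Müllerian lineage, lay between 11.60 and 12.15 over the 14 arrays. WT1, a factor of serous ovarian cancers, lay between 8.98 and 9.60. Not all 12 were as steady. The keratin gene KRT19 ran from 8.98 in stable R5 to 12.03 in selected R7. MUC16 ran from 9.41 in stable R3 to 11.36 in parental replicate 4. Mean signal of the 12 was 10.99 to 11.42 in selected, 10.83 to 11.43 in stable and 11.09 to 11.30 in parental arrays. The mean of 6 fibroblast markers was 6.85 to 7.07 in selected, 6.87 to 7.16 in stable and 6.89 to 7.18 in parental arrays, with COL1A1, a collagen gene, the brightest of them at 8.84 to 9.39. Leukocyte markers averaged 6.56 to 6.69 in selected, 6.43 to 6.68 in stable and 6.505 to 6.65 in parental arrays, and endothelial markers 6.82 to 6.96, 6.76 to 7.03 and 6.77 to 7.02 in the same order. Since probes differ and no detection calls were used, these levels do not show which cell types were present or absent.

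No marker of the 4 lists passed in selected against parental cells. Limma gave 7 of the 12 epithelial ones an unadjusted p under 0.05, beside 3735 of 18398 genes. The smallest p were those of MUC16, the CA125 antigen gene, at -0.88 (SE 0.25), the adhesion gene EPCAM at 0.25 (SE 0.07), mesothelin (MSLN) at -0.56 (SE 0.16) and the tight junction gene CLDN4 at 0.46 (SE 0.13). All 5 selected arrays lay above all parental ones in EPCAM and below them in MSLN, and what part these markers have in the carrier differences was not tested. Background signal was 6.06 to 6.60 in selected, 6.18 to 6.70 in stable and 6.16 to 6.71 in parental arrays. When it entered the fit as a covariate, 8 carriers were called against parental cells, the 6 named above with SLC25A24 and SLC25A29. Calls over all 18398 genes went up too, from 1273 to 2318.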

How the data were processed

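The authors deposited a table of array values, used here as log2 signal. Per the labels, RNA was labelled with biotin for Affymetrix whole-transcript arrays. The log base was not stated and is read as 2 from how far the values extend. How signals were background-corrected, normalized and summarised is not stated in the labels. Of 32295 rows, 19148 name 1 gene, 1376 several and 11771 are unnamed here. RefSeq's gene table for GRCh38.p14 matched 19118 of those 19148 rows and updated their symbols. The brightest row per gene was kept, giving 18398 genes. Dim genes stayed in, and 34 of the 49 carriers have a mean signal past the 40th percentile, the dim filter tried. Members and gene lists were chosen with earlier results of these data known. Genes named in full are those called, UCP2, SLC25A11, and per role group the brightest member and the 2 smallest p in selected against parental cells. Of each context list the 4 genes with the smallest p in that comparison were named.

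Tests used limma 3.58.1 in R 4.3.3 with a threshold of 0.05, checked on simulated data, on 9 arrays against parental cells and 10 between resistant states, with no covariates, and between sublines on those 10 arrays with state as a covariate. The labels pair selected and stable arrays by subline. Paired deviations from the group means correlated at 0.64, 0.05, 0.37, 0.55 and -0.47 for R1, R3, R5, R6 and R7 (across genes, which are not replicates). Alternatives were quantile normalization, array weights, median centring, robust trended variance, the dim filter, the mean of all rows, 1 fit of all 14 arrays, the olfactory receptor mean as a covariate, the subline block, and leaving out each array or subline R7. Figures were drawn with matplotlib 3.10.9.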

Additional observations from a re-analysis of the deposited data

Results flagged for a closer look

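In 6 of 147 groups of arrays (49 carriers in 3 groups) 1 array stood apart by Dixon's test, which picks out about 1 group in 20 by chance. SLC25A12, an aspartate-glutamate carrier, was 9.46 in selected R6, against 9.90 to 10.00 in the other selected arrays. Stable R1 was high in 3 carriers, SLC25A46 at 10.58 (others 9.93 to 10.11), SLC25A43 at 8.95 (others 8.64 to 8.68) and SLC25A30 at 7.33 (others 6.80 to 6.92). Parental replicate 3 was low in 2, the dicarboxylate carrier SLC25A10 at 9.27 (others 9.57 to 9.62) and the iron importer SLC25A28 at 8.47 (others 8.73 to 8.76). Stable R1 had the lowest olfactory receptor mean of the stable arrays, 6.18, and parental replicate 3 the highest of the parental arrays, 6.71. The part of background signal in these values was not tested. None of these carriers was called in selected against parental or stable against parental cells in the settings reported first.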

How the results depend on the processing

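For selected against parental cells, where 6 carriers passed, settings that left out no array gave 5 to 8, and leaving out each array in turn gave 3 to 6. These counts hold UCP2 and SLC25A11, for which the family was chosen, so nothing is read from that pair. For stable against parental cells 0 passed in 16 of 17 alternatives and 1, SLC25A46, with array weights. For selected against stable cells, where 3 passed, array weights gave 7, the replicate block 6, the block together with background signal as covariate 0, leaving out both arrays of R7 0 (0 of all 18398 genes passed in either of these), and leaving out each array in turn 1 to 5. Between sublines 0 passed in each alternative except array weights, which gave 4, beside 1389 of all 18398 genes. Over all genes the counts ranged from 517 to 2318 for selected against parental (1273 as reported), 1 to 286 for stable against parental (1), 0 to 1480 for selected against stable (397) and 0 to 1389 between sublines (22). The block changed no sign and left the differences as they were, since every subline has both states. No called difference from parental cells changed sign in any alternative. All fits rest on 4 or 5 arrays a group, and the background subtraction behind the deposited values is unknown. Of 49 carriers, 15 lie under the 40th percentile of mean signal.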

Other observations

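The nearest measured genes on each side of the called carriers in RefSeq gene order were looked up after the values were seen. Unmeasured genes were skipped and may lie between. UCP3, which neighbours UCP2, averaged 7.56 ± 0.11 over 5 selected and 7.62 ± 0.05 over 4 parental arrays (SD), and DNAJB13, a cilium protein gene on the other side of UCP2, differed by 0.04 (SE 0.07, limma adjusted p = 0.814). RNF167, a ubiquitin ligase gene next to SLC25A11, differed by -0.02 (SE 0.09, limma adjusted p = 0.952) and GP1BA, a platelet glycoprotein gene on its other side, by 0.01 (SE 0.07, limma adjusted p = 0.975). DBF4 and RUNDC3B beside SLC25A40 and CFAP97 and HELT beside SLC25A4 differed by -0.07 to 0.07, and none passed. DCAF10, next to SLC25A51, rose by 0.47 in selected cells (SE 0.09, limma adjusted p = 0.0131), beside 0.43 for SLC25A51. SEMA4A, a semaphorin gene next to SLC25A44, fell by 0.56 (SE 0.07, limma adjusted p = 0.00175), opposite to the rise of SLC25A44. The other neighbours of these 2 carriers, SHB and PAQR6, differed by -0.06 and -0.04 and did not pass.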
